A study of Mus musculus with 8 samples.

Results

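The genes described here encode the constitutive proteasome, the particle that degrades ubiquitin-tagged proteins. They were taken as all protein-coding mouse genes whose symbol starts with Psma, Psmb, Psmc, Psmd or Psme, without the immune subunits Psmb8 and Psmb9. This gave 44 of 21883 protein-coding genes, 17 of them for the 20S core (Psma and Psmb), 21 for the 19S cap (Psmc and Psmd) and 6 in the Psme group of activators. The symbols also took in genes that are no constitutive subunits. Psmb10 encodes a catalytic subunit of the immunoproteasome and Psmb11 one of the thymus particle, and Psma8 encodes an alpha subunit of the germ cell particle. Psmd5, Psmd9 and Psmd10 are chaperones that help to assemble the cap, Psmc3ip acts in meiotic recombination, Psme3ip1 encodes a partner of Psme3, and Psme2b is a copy of Psme2.

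In the 20S core, 4 stacked rings form a barrel whose beta subunits cut proteins into peptides. The 19S cap binds ubiquitin chains, removes them, unfolds the protein and feeds it into the barrel, and Psme activators open the barrel without ubiquitin. In dendritic cells these peptides feed the presentation of antigen on major histocompatibility complex class I, the task for which cross-presenting type 1 conventional dendritic cells (cDC1s) are best known.

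Accessible chromatin was measured by ATAC-seq, in which a transposase cuts open DNA, in wild-type mouse cDC1s purified by sorting from tumours of B16-OVA, a mouse melanoma line that carries the model antigen ovalbumin. There were 4 libraries of cells taken 21 days after inoculation of the tumour and 4 of cells taken after 7 days. All libraries share the genotype and the tumour line, and the ages of the mice, the sort gate and whether cells of several mice were pooled are not given in the sources used here. Nothing in the labels says that the libraries came from separate mice, so the p-values measure only the spread between these libraries.

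The deposited counts in 128057 regions summed to between 14021151 and 27737040 per library at day 21 and to between 9440223 and 16063736 at day 7. Regions at gene ends held 36.1% to 36.6% of the counts at day 21 and 37.9% to 39.3% at day 7. Of 10 cDC1 marker genes, 9 had a region at a gene end (all but Itgae), with a summed level of 395 to 420 CPM (counts scaled to the library total) at day 21 and 372 to 409 CPM at day 7. In distal regions 9 of the 10 (all but Xcr1) summed to 1112 to 1173 CPM at day 21 and to 985 to 1048 CPM at day 7, with no overlap. Of these 9 markers 6 rose and 0 fell at an edgeR adjusted p under 0.05, against 18.3% and 11.4% of all genes. At gene ends 2 of 9 rose and 1, Irf8, fell (−0.51 on the log2 scale), against 6.71% and 24.6% of all genes. Of 4 plasmacytoid dendritic cell markers, 3 had a gene-end region (all but Ccr9), with sums of 66.2 to 69.8 CPM at day 21 and 72.7 to 79.0 CPM at day 7, with no overlap. Bst2 and Tcf4 fell there, whereas Siglech rose (0.29 on the log2 scale, edgeR adjusted p = 0.0488). Distal sums over 3 of the 4 (all but Bst2) overlapped, at 157.3 to 164.2 CPM at day 21 and 164.0 to 166.4 CPM at day 7. In these regions Tcf4 fell and Ccr9 rose. Markers of T and NK cells, of which 9 of 11 had distal regions, summed to 225 to 248 CPM at day 21 and to 267 to 287 CPM at day 7. Of these 9 markers 5 fell and 0 rose, against 11.4% and 18.3% of all genes. Their gene-end sums, over 8 of 11 markers, were 50.0 to 59.8 CPM at day 21 and 54.1 to 63.6 CPM at day 7. Lck and Ncr1 had no gene-end region, and Trac was not among the genes analysed here. Of 7 tested at gene ends 3 fell and 1, Klrb1c, rose (0.51 on the log2 scale), against 24.6% and 6.71% of all genes. All 9 macrophage and monocyte markers had a gene-end region, with sums of 60.1 to 69.1 CPM at day 21 and 53.7 to 58.9 CPM at day 7. The part of these markers and of the gene-end share in the results below was not tested. In such bulk samples a change in the mix of cells cannot be told apart from a change of accessibility within the cells.

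The promoters printed next are those of members whose gene ends fell with the smallest p, of the catalytic subunits Psmb5 and Psmb6, and of 3 further genes chosen after their values were seen (Psmc2, Psmd11 and Psme4). They hold the 250 bases before the annotated transcript start, 5′ to 3′ on the strand of the gene, and were taken from RefSeq (GRCm38.p6, the assembly of mm10). RefSeq entries were found for 37 of the 44 members, 41 entries in all. Psmd3, Psmb7, Psmb1, Psmb2, Psmc3, Psmd7 and Psma8 had none. Capitals mark letters of 4 motifs on either strand: TGACNNNGC, the core of the antioxidant response element bound by the proteasome regulator Nfe2l1; CCAAT, the NF-Y box; TGACGTCA, the cyclic AMP response element; and CCGGAAG, the site of ETS factors. Read on the opposite strand, the NF-Y box is ATTGG and the ETS site is CTTCCGG.

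The 19S cap genes are shown first, since the ETS letters recur near their starts. Psmd12 (chr11:107479278-107479527, + strand), Psmd14 (chr2:61711444-61711693, + strand) and Psmc2 (chr5:21785025-21785274, + strand) fell at their gene ends, and Psmd11 (chr11:80428365-80428614, + strand) did not pass the test.
Psmd12: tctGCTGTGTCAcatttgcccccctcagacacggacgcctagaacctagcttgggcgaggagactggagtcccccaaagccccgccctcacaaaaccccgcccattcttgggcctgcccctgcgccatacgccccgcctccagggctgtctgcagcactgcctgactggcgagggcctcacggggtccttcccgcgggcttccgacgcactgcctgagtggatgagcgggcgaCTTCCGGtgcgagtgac
Psmd14: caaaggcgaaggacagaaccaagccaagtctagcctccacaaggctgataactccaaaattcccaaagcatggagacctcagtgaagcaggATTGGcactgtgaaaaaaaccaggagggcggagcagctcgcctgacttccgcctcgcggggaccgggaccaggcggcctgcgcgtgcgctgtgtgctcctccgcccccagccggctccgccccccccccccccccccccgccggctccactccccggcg
Psmc2: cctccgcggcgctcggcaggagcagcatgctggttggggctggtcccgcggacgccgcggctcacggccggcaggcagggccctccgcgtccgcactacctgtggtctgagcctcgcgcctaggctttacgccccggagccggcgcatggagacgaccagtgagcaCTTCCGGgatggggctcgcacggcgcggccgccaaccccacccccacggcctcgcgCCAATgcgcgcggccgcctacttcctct
Psmd11: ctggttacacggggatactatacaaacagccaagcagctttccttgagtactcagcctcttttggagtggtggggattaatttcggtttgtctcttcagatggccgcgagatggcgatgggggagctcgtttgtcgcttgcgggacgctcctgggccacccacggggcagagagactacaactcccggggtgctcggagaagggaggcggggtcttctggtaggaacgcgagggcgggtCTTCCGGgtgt

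The 20S core genes are Psmb10 (chr8:105938393-105938642, - strand) and Psma5 (chr3:108256676-108256925, + strand), which fell, and Psmb6 (chr11:70525107-70525356, + strand) and Psmb5 (chr14:54617996-54618245, - strand), which did not pass the test and hold the antioxidant response element letters.
Psmb10: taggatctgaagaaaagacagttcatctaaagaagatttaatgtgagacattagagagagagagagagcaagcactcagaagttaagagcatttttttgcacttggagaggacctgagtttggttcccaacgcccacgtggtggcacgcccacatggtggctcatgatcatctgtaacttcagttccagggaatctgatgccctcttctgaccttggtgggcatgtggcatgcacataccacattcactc
Psma5: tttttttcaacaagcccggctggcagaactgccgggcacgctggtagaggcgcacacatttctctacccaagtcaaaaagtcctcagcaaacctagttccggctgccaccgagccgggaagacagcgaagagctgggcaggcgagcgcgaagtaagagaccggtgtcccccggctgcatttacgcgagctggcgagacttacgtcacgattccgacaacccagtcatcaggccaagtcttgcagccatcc
Psmb6: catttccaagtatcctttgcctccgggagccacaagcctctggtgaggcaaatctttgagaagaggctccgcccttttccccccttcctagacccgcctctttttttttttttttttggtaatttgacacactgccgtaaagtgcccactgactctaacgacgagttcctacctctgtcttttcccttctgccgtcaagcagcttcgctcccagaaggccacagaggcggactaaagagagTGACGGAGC
Psmb5: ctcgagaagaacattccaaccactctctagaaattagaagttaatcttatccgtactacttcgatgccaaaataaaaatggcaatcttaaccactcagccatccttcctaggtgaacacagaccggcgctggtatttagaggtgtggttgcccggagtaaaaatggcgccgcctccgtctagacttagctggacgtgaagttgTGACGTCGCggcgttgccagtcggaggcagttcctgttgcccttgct

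Psme4 (chr11:30771525-30771774, + strand) is the single member that rose at its gene ends.
Psme4: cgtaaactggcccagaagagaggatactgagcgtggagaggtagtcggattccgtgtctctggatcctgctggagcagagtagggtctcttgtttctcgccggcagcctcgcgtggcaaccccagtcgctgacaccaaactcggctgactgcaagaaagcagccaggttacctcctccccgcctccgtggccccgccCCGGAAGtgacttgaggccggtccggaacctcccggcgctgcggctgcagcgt

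A match of CCGGAAG on either strand stood in 10 of 19 entries of 19S cap genes (52.6%), against 1 of 14 entries of 20S core genes (7.14%) and 8.98% of 21262 entries of all protein-coding genes. The cap group was taken by symbol and so includes Psmc3ip, which has a match but encodes no subunit. In the 9 genes of the group with a match (Psmc1, Psmc2, Psmc3ip, Psmc6, Psmd2, Psmd4, Psmd6, Psmd11 and Psmd12), the nearest match ended 1 to 119 bases before the start, with a median of 20 bases. The 1 base was that of Psmc3ip, and the nearest in a cap subunit gene was 5 bases, in Psmd11. The 19 entries cover 18 genes, since Psmc2 has more than 1 entry, each with a match. Its match ended 78 bases before the start in the entry printed above and 18 bases before it in another, and the nearer was used. The other 3 motifs, taken over all members, were near the share of all promoters. TGACNNNGC stood in 5 of 41 entries of members (12.2%, against 10.4% of all), CCAAT in 15 (36.6%, against 35.4%) and TGACGTCA in 0 (against 1.92%). By group, CCAAT stood in 7 of 14 entries of the 20S core (50.0%), 6 of 19 of the 19S cap (31.6%) and 2 of 8 of the Psme genes (25.0%). Differences between groups were not tested for any motif. The TGACNNNGC match ended 39 bases before the start of Psmb5 and 1 base before that of Psmb6, while that of Psmd12 lay 239 bases away. Members' promoters had a median GC content of 57.6%, against 55.6% for all entries. These matches are a description of the letters in this window and show no binding.

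**Figure D1:**
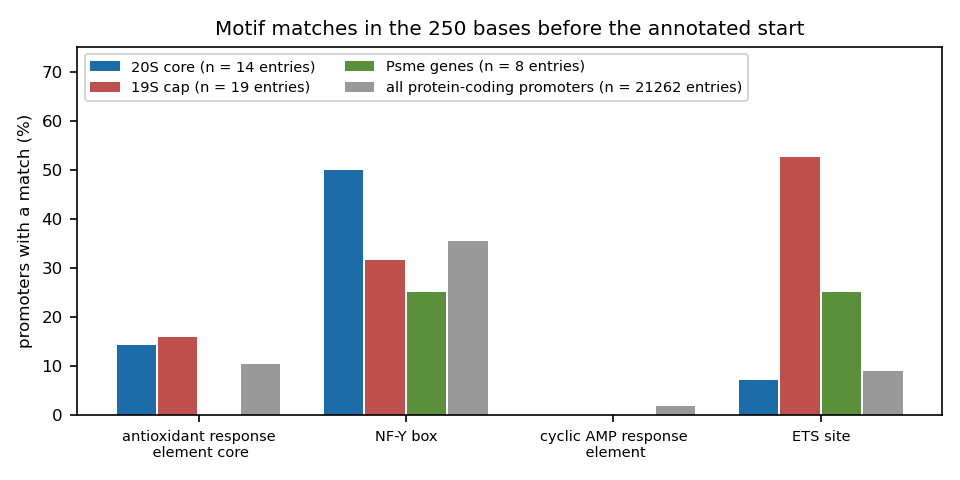
Share of RefSeq promoter entries (%, y axis) with at least 1 match of each of 4 motifs in the 250 bases before the start, for 20S core, 19S cap and Psme genes and for all protein-coding genes. The ETS site stands in 52.6% of 19S cap entries and in 8.98% of all.

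Accessibility at gene ends was the summed count of all regions within 1000 bp of either annotated end of a gene. Most proteasome genes had slightly lower values at day 21, with the smallest p values at the lid genes Psmd3, Psmd12 and Psmd14 and the immune subunit gene Psmb10. Of 44 members, 39 had a region there, and all 39 passed the filter on low counts. Psma6, Psma7, Psmb11, Psmc5 and Psme2b had no region at either end. At an adjusted p under 0.05 in edgeR's quasi-likelihood test over 13569 genes, 14 of the 39 were lower at day 21, 1 was higher and 24 did not pass. Over all genes tested, 24.6% were lower and 6.71% higher. The members' median log2 fold change of day 21 over day 7 was −0.18, against −0.089 for all genes tested, and 35 of the 39 were below 0, as were 9127 of the 13569 genes.

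In 12 of the 39 members every day 21 library lay below every day 7 library, and in 1 every day 21 library lay above, which held for 20.6% and 5.95% of all genes. The summed level over all member regions was 1414 ± 27.5 CPM at day 21 and 1547 ± 52.0 CPM at day 7 (SD, n = 4 each), a ratio of 0.914. By group, 5 of 14 tested 20S genes fell (median −0.20), 9 of 20 tested 19S genes fell (median −0.18), and of 5 tested Psme genes none fell and 1 rose (median −0.099). Over all genes tested, 24.6% fell and 6.71% rose in edgeR (median −0.089). Of the 5 Psme genes, 3 had an unadjusted edgeR p under 0.05, Psme4 among them, as had 5609 of all 13569 genes. With DESeq2 0 of them fell and 1 rose, against 11.1% and 10.9% of all genes. The difference between the groups was not tested. Without the genes that are no constitutive subunits, 11 of 32 fell and 1 rose, against 24.6% and 6.71% of all genes, with a median of −0.17.

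The count of lower members depended on the scaling. With offsets fitted as a trend of the signal level, 5 members were lower and 1 higher, against 12.3% and 11.9% of all genes, and the members' median was −0.076, while that of all genes was −0.0059. With DESeq2 and its own size factors, 4 members were lower and 1 higher, against 11.1% and 10.9% of all genes. Of the 15 called members, Psmd3, Psmd12 and Psmb10 kept their call under every alternative that gave them a value. With DESeq2 the call was lost by 10 members, Psma1, Psma2, Psma5, Psmb7, Psmc2, Psmc3ip, Psmc4, Psmd4, Psmd8 and Psmd9. With trended offsets it was lost by those of them other than Psmb7 and Psmd9, and by Psmd14. After thinning of the libraries to equal depth Psmb7, Psmc3ip, Psmd4, Psmd8 and Psme4 did not pass. Leaving out day 21 replicate 4, day 7 replicate 2 or day 7 replicate 3 left 9 lower members each.

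**Figure D2:**
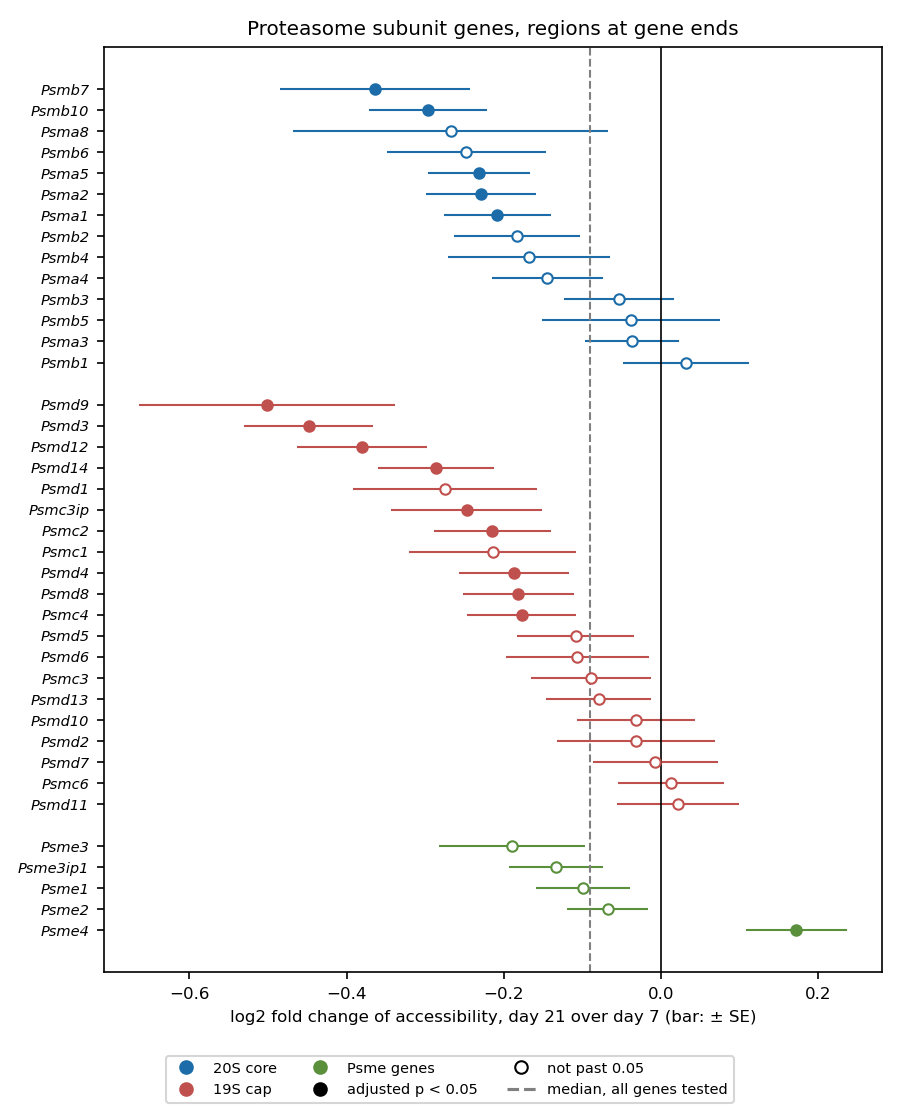
Log2 fold change of accessibility at gene ends, day 21 over day 7 (x axis), for the 39 members tested, with bars of ± SE. Filled points passed an adjusted p of 0.05 and the dashed line is the median of all genes tested (−0.089), to the left of which most members lie.

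In the cap, the lid is the part that removes ubiquitin. Of its 8 Psmd genes 4 fell (Psmd3, Psmd12, Psmd14 and Psmd8), against 24.6% of all genes. Psmd3, a scaffold subunit of the lid, had 26.6, 28.0, 28.9 and 24.1 CPM at day 21, against 35.3, 43.0, 35.6 and 33.3 CPM at day 7. Its log2 fold change was −0.45 ± 0.08 (SE; edgeR adjusted p = 2.04e-05), and all day 21 libraries were lower than all day 7 libraries. Its region, chr11:98682077-98682752, lies over the left annotated end of the gene. Psmd12, another lid scaffold, had 25.2, 24.4, 25.0 and 24.7 CPM at day 21, against 30.8, 37.5, 31.5 and 30.0 CPM at day 7. The day 21 libraries lay within 1 CPM of each other and below all day 7 libraries (log2 fold change −0.38 ± 0.08, edgeR adjusted p = 2.81e-04). Of its 2 gene-end regions, the one over the start printed above (chr11:107479218-107479848) carried the change, with −0.45 ± 0.09 (edgeR adjusted p over regions = 1.70e-04), while the one further into the gene had 0.07 ± 0.22 (edgeR adjusted p = 0.873).

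Psmd14, the deubiquitinase of the lid, had 37.0, 34.7, 34.8 and 35.1 CPM at day 21, against 43.9, 49.1, 42.4 and 38.0 CPM at day 7. The groups did not overlap, and the log2 fold change was −0.29 ± 0.07 (edgeR adjusted p = 0.00203). With trended offsets the adjusted p was 0.0594. Psmd8, a further lid subunit, averaged 40.0 ± 2.20 CPM at day 21 and 45.2 ± 2.79 CPM at day 7 (SD, n = 4 each), with overlapping groups (−0.18 ± 0.07, edgeR adjusted p = 0.0409). Its region is shared with the end of Catsperg1. That call was lost without day 21 replicate 1, 2 or 4 or day 7 replicate 3 or 4 (edgeR adjusted p of 0.0596 to 0.145). The remaining Psmd genes of the lid, Psmd6, Psmd7, Psmd11 and Psmd13, ran between −0.11 and 0.02 and did not pass. Psmd11, whose promoter above holds the ETS letters next to the start, had 33.3 ± 2.12 CPM at day 21 and 32.8 ± 2.15 CPM at day 7, a log2 difference with a 95% interval of −0.13 to 0.17.

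In the base, the ring of 6 Psmc ATPases unfolds the substrate. Of the 5 with a region, Psmc2 and Psmc4 fell, against 24.6% of all genes. Psmc1 (−0.21), Psmc3 (−0.09) and Psmc6 (0.01) did not pass. Psmc2 had 32.7, 31.6, 34.9 and 31.4 CPM at day 21, against 37.0, 39.6, 37.9 and 37.0 CPM at day 7, with no overlap (−0.21 ± 0.07, edgeR adjusted p = 0.0213). Its region is shared with the end of Dnajc2, and the call was lost without day 21 replicate 2 (edgeR adjusted p = 0.0531), day 21 replicate 4 (0.0737) or day 7 replicate 2 (0.0559). Among the other settings it was lost with DESeq2, with trended offsets (edgeR adjusted p = 0.270), with windows at annotated starts only and with windows of 2000 bp. Psmc4 averaged 41.6 ± 2.58 CPM at day 21 and 47.0 ± 1.19 CPM at day 7 (−0.18 ± 0.07, edgeR adjusted p = 0.0414). It was lost without day 21 replicate 1 or 4 or day 7 replicate 2, 3 or 4 (edgeR adjusted p of 0.0569 to 0.159).

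Psmd4, a receptor for ubiquitin chains, had 37.5, 43.0, 40.0 and 42.7 CPM at day 21, against 43.6, 50.0, 45.6 and 47.3 CPM at day 7. The groups touched without overlap (−0.19 ± 0.07, edgeR adjusted p = 0.0334). Without day 21 replicate 1 or day 7 replicate 2, 3 or 4 the call was lost (edgeR adjusted p of 0.0508 to 0.126). The base scaffolds Psmd1 and Psmd2, which hold the receptors and shuttle proteins, did not pass, at −0.27 ± 0.12 (edgeR adjusted p = 0.0649) and −0.03 ± 0.10 (edgeR adjusted p = 0.842). Leaving out day 21 replicate 2 or 4 or day 7 replicate 1 or 4 brought Psmd1 past the threshold (edgeR adjusted p between 0.0325 and 0.05).

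Among the cap chaperones, Psmd9 had the lowest fold change of all members and one of the lowest levels. It had 5.48, 6.92, 5.72 and 5.34 CPM at day 21, against 9.80, 8.92, 6.58 and 7.89 CPM at day 7, and the groups overlapped in 1 library of each day (−0.50 ± 0.16, edgeR adjusted p = 0.0141). The call was lost without day 21 replicate 4 (edgeR adjusted p = 0.0525) or day 7 replicate 1 (0.0704), with DESeq2, and with windows of 2000 bp, where the log2 fold change was −0.19 (edgeR adjusted p = 0.301). Psmd5 (−0.11 ± 0.07) and Psmd10 (−0.03 ± 0.07) did not pass. Psmc3ip, the recombination gene, averaged 17.7 ± 0.963 CPM at day 21 and 21.1 ± 1.29 CPM at day 7 over a region shared with Retreg3 (−0.25 ± 0.10, edgeR adjusted p = 0.0405), and held only without day 21 replicate 2 or day 7 replicate 1 among the libraries left out in turn, with an edgeR adjusted p of 0.0519 to 0.118 in the other 6 fits.

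**Figure D3:**
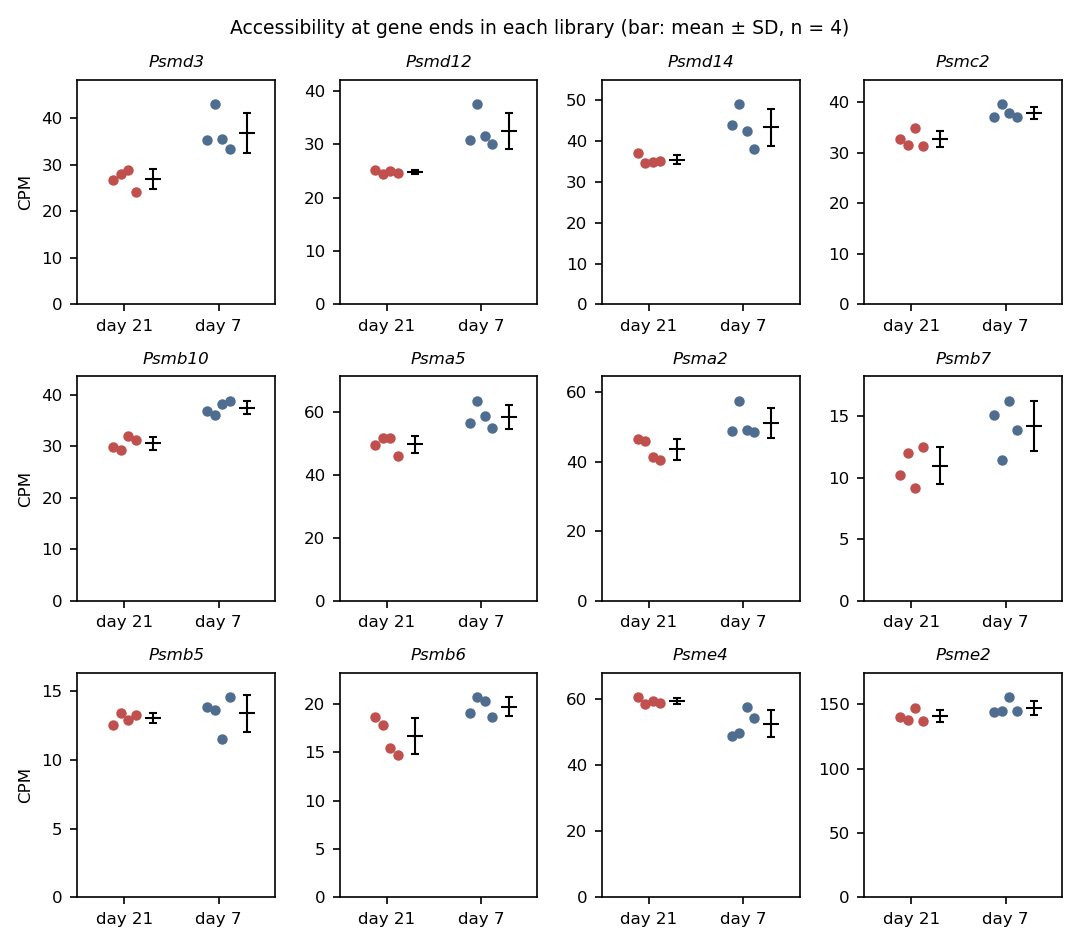
CPM at gene ends in each of 4 day 21 and 4 day 7 libraries (points; y axes from 0) for 12 members, with the mean ± SD beside them. The day 21 points of Psmd3, Psmd12, Psmd14 and Psmb10 lie below all day 7 points, those of Psme4 lie above, and those of Psmb5 and Psme2 overlap.

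The alpha subunits form the outer rings of the 20S core and its gate. Of 6 tested, Psma1, Psma2 and Psma5 fell, against 24.6% of all genes. Psma3 (−0.04), Psma4 (−0.14) and Psma8 (−0.27 ± 0.20) did not pass. Psma5 had 49.4, 51.6, 51.6 and 46.0 CPM at day 21, against 56.4, 63.6, 58.7 and 54.8 CPM at day 7, with no overlap (−0.23 ± 0.07, edgeR adjusted p = 0.00464). The adjusted p was 0.0979 with trended offsets. Psma2 had 46.4, 45.8, 41.4 and 40.5 CPM at day 21, against 48.8, 57.6, 49.2 and 48.6 CPM at day 7. These groups did not overlap either (−0.23 ± 0.07, edgeR adjusted p = 0.00873), in a region shared with Mrpl32, and the call was lost without day 21 replicate 4 (edgeR adjusted p = 0.0510) or day 7 replicate 2 (0.0669). Psma1 had 43.6, 40.1, 45.1 and 41.4 CPM at day 21, against 46.3, 51.8, 48.6 and 49.7 CPM at day 7 (−0.21 ± 0.07, edgeR adjusted p = 0.0150). All day 21 libraries were lower, and the adjusted p without day 21 replicate 2 was 0.0535 in edgeR.

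The beta rings carry the catalytic sites, and differences between their genes were not tested. Psmb7, the trypsin-like subunit, had 10.3, 12.03, 9.20 and 12.5 CPM at day 21, against 15.1, 11.5, 16.3 and 13.9 CPM at day 7. Day 7 replicate 2 lay within the day 21 values (−0.36 ± 0.12, edgeR adjusted p = 0.0166), and the call was lost without day 21 replicate 3 (edgeR adjusted p = 0.0547) or day 7 replicate 3 (0.0925). Psmb6, the caspase-like subunit, had 18.6, 17.8, 15.4 and 14.7 CPM at day 21, against 19.02, 20.7, 20.3 and 18.7 CPM at day 7. The groups did not overlap, yet the test narrowly missed the threshold (−0.25 ± 0.10, edgeR adjusted p = 0.0520), and it was passed without day 21 replicate 1 or 2 (edgeR adjusted p = 0.0281 and 0.0403). Its start region alone fell by 0.31 ± 0.11 on the log2 scale (edgeR adjusted p over regions = 0.0369), which was lost without day 21 replicate 3 or 4 or day 7 replicate 2 or 3 (0.0719 to 0.175). Psmb5, the chymotrypsin-like subunit, had 12.5, 13.4, 12.9 and 13.2 CPM at day 21, against 13.8, 13.6, 11.5 and 14.5 CPM at day 7. All day 21 libraries lay within the range of the day 7 libraries (−0.04 ± 0.11, edgeR adjusted p = 0.831), with a 95% interval of −0.26 to 0.18.

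Psmb10, the immunoproteasome counterpart of Psmb7, had 30.0, 29.2, 31.9 and 31.2 CPM at day 21, against 37.0, 36.0, 38.3 and 38.9 CPM at day 7. The groups lay apart (−0.30 ± 0.07, edgeR adjusted p = 0.00163). Its region, chr8:105936877-105938567, covers 175 of the 250 promoter bases and is shared with the end of Lcat. Psmb8 and Psmb9, the other immune catalytic subunits, each share gene-end regions with Tap1 and had log2 fold changes of 0.07 ± 0.07 (edgeR adjusted p = 0.479) and 0.03 ± 0.07 (edgeR adjusted p = 0.784). Over regions shared with no other gene Psmb9 rose by 0.88 (edgeR adjusted p = 0.00458) and Psmb8 was at −0.44 and did not pass, while with trended offsets Psmb8 passed at 0.17 (edgeR adjusted p = 0.0376). The structural beta genes Psmb1 (0.03), Psmb2 (−0.18), Psmb3 (−0.05) and Psmb4 (−0.17) did not pass. Psmb2 passed without day 21 replicate 3 or day 7 replicate 4 (edgeR adjusted p = 0.0241 and 0.0443), and Psmb4 without day 21 replicate 2 (edgeR adjusted p = 0.0435).

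Psme1 and Psme2 form the interferon-inducible activator PA28 alpha-beta, Psme3 the nuclear activator PA28 gamma, and Psme4 the activator PA200. Psme4 had 60.5, 58.4, 59.4 and 58.7 CPM at day 21, against 48.8, 49.6, 57.3 and 54.1 CPM at day 7. It was the only member that rose at gene ends (0.17 ± 0.06, edgeR adjusted p = 0.0319), and its groups did not overlap. Without any 1 of the day 21 replicates, or without day 7 replicate 1 or 2, the call was lost (edgeR adjusted p of 0.0617 to 0.111), whereas with trended offsets the adjusted p was 2.62e-04. Psme3 had 21.7, 21.4, 18.5 and 20.03 CPM at day 21, against 22.4, 25.8, 24.4 and 20.8 CPM at day 7, with overlap and no call (−0.19 ± 0.09, edgeR adjusted p = 0.113). Psme3ip1 was at −0.13 ± 0.06 (edgeR adjusted p = 0.0805) and passed without day 21 replicate 3 or day 7 replicate 1 (edgeR adjusted p = 0.00996 and 0.0486).

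Psme2 had the highest level per length of region of all members, 86.7 CPM per kb at day 21 and 90.9 CPM per kb at day 7. Its gene-end sum was 140, 138, 147 and 137 CPM at day 21, against 144, 145, 155 and 145 CPM at day 7 (−0.07 ± 0.05, edgeR adjusted p = 0.327). It has 2 regions, whose difference was not tested. The large one over the start (chr14:55590582-55591961, shared with Rnf31) averaged 134 ± 4.06 CPM at day 21 and 137 ± 4.81 CPM at day 7 (−0.03 ± 0.05, edgeR adjusted p over regions = 0.762). The small one 799 bp into the gene (chr14:55590101-55590342) had 6.96, 4.51, 7.66 and 7.33 CPM at day 21, against 10.3, 10.4, 11.7 and 10.3 CPM at day 7. It fell by 0.68 ± 0.15 on the log2 scale (edgeR adjusted p over regions = 4.88e-04).

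In Psme1, the sum had 64.3, 67.0, 62.7 and 62.4 CPM at day 21, against 65.5, 68.1, 68.0 and 72.4 CPM at day 7 (−0.10 ± 0.06, edgeR adjusted p = 0.208). The region over the start (chr14:55578251-55579165) had 26.5, 26.1, 25.0 and 25.0 CPM at day 21, against 29.2, 34.4, 30.6 and 31.9 CPM at day 7. There, every day 21 library was lower (−0.30 ± 0.08, edgeR adjusted p over regions = 0.00640). The region past the other end (chr14:55581565-55581920, shared with Emc9) had 20.1 ± 2.26 CPM at day 21 and 16.7 ± 1.44 CPM at day 7, a difference of 0.26 ± 0.10 that did not pass (edgeR adjusted p over regions = 0.0626). With windows around annotated starts only, Psme1 was lower (edgeR adjusted p = 0.00328), and 12 of 33 members were lower and 1 higher, against 26.7% and 6.2% of all genes. Psma3 had its start region at 0.07 ± 0.07 (edgeR adjusted p over regions = 0.514) and the region at its right end at −0.40 ± 0.11 (edgeR adjusted p over regions = 0.00385). Of the members' 51 gene-end regions, 14 fell and 0 rose, at an unadjusted p under 0.05 22 were lower and 2 higher. Of 17638 gene-end regions of all genes, 16.6% fell and 6.64% rose, and 25.0% and 11.3% did so at an unadjusted p under 0.05.

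**Figure D4:**
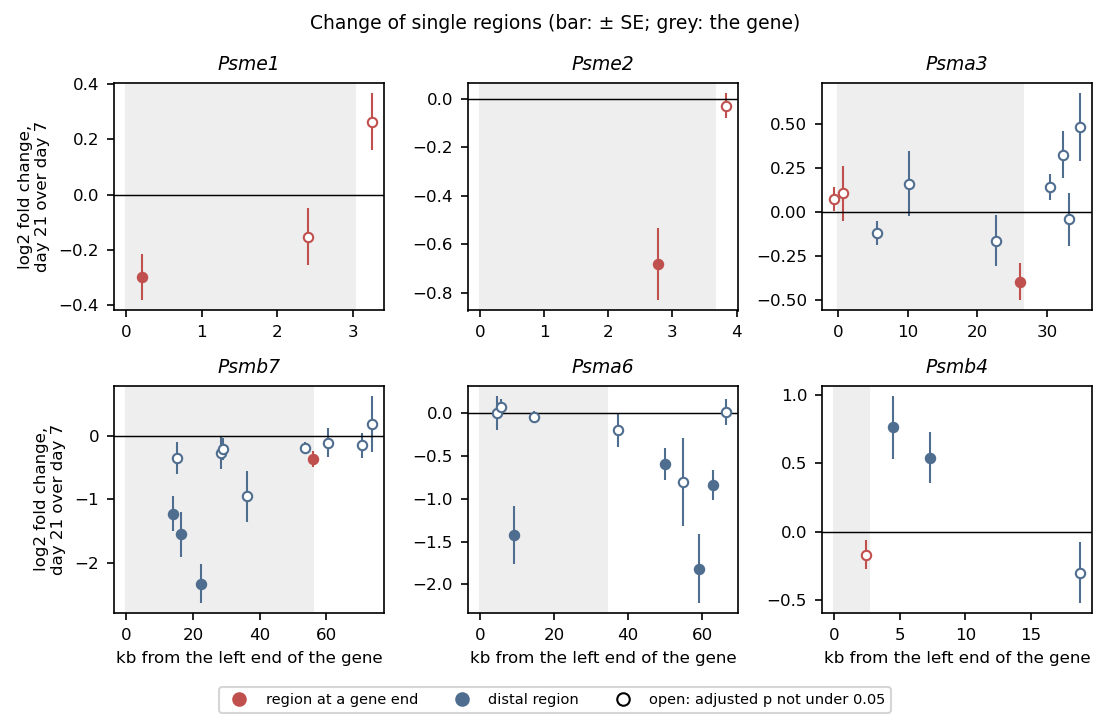
Log2 fold change of single regions, day 21 over day 7 (y axis, bars ± SE), by distance from the left annotated end of the gene in kb (x axis; grey marks the gene), for Psme1, Psme2, Psma3, Psmb7, Psma6 and Psmb4. The regions over the starts of Psme1 and Psme2 are at −0.30 and −0.03, and the lowest region of Psmb7 is at −2.32.

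Distal accessibility was the summed count of regions outside all gene-end windows whose nearest protein-coding gene end, within 50 kb, belonged to the member. These regions gave few calls for proteasome genes. Of 44 members 27 had such regions, and all 27 passed the filter. In edgeR's test over 14486 genes, 3 were lower at day 21 (11.4% of all genes) and 1 was higher (18.3% of all genes), and 23 did not pass. The median was −0.0051, against 0.039 for all genes tested. All 4 called genes encode 20S subunits, while 0 of 13 tested 19S genes passed in edgeR (2 of 13 at an unadjusted p under 0.05, as had 5697 of all 14486 genes) and 0 passed with DESeq2 (13.3% of all genes lower and 13.4% higher). The groups' difference was not tested. Of the members' 93 single distal regions tested, 8 fell and 3 rose, against 8.4% and 9.97% of the distal regions of all genes. In 2 members every day 21 library was lower than every day 7 library and in 3 every one was higher, against 10.4% and 16.5% of all genes.

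Psmb7 had the smallest p among distal sums, with 54.4, 50.8, 44.9 and 51.2 CPM at day 21, against 68.1, 63.7, 68.5 and 61.9 CPM at day 7 over 11 regions. The groups were far apart (−0.38 ± 0.07, edgeR adjusted p = 3.99e-06), and the call held under every alternative tried. Inside the gene, the region chr2:38610157-38610546 had 2.67, 0.361, 1.06 and 0.498 CPM at day 21, against 5.65, 6.16, 5.23 and 4.47 CPM at day 7. That region fell by 2.32 ± 0.30 on the log2 scale (edgeR adjusted p over regions = 1.38e-08), and 2 further regions of the gene body fell by 1.23 and 1.55, while 8 did not pass. These 3 regions were lower under every alternative tried. Psmb7 and Psma1 were lower both at their gene ends and in their distal regions.

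Psma1 had 36.2, 37.1, 39.9 and 40.0 CPM in distal regions at day 21, against 41.8, 51.6, 41.5 and 42.5 CPM at day 7 (−0.20 ± 0.07, edgeR adjusted p = 0.0327). Day 7 replicate 2 was the highest, and the call was lost without it (edgeR adjusted p = 0.222), as well as without day 21 replicate 1 or 2 (0.0843 and 0.0729), within 20 kb (0.596), after thinning and with limma-voom. 1 of its 9 distal regions fell, by 0.76 ± 0.20 on the log2 scale (chr7:114316407-114316794, edgeR adjusted p over regions = 0.00361), and it too was lost without day 7 replicate 2 (0.149). Psma6, an alpha subunit with no gene-end region, had 99.0, 93.1, 91.2 and 101 CPM at day 21, against 109, 102, 116 and 99.5 CPM at day 7. Its groups overlapped (−0.15 ± 0.06, edgeR adjusted p = 0.0357), and without day 21 replicate 2 or day 7 replicate 1 or 3 the call was lost (edgeR adjusted p of 0.0904 to 0.204), as it was within 20 kb (0.336). Of its 10 regions, 4 fell, by 0.59 to 1.82 on the log2 scale, and the others ran from −0.81 to 0.07. The region chr12:55446672-55447483, at −0.84 ± 0.17 (edgeR adjusted p over regions = 1.70e-04), was lower under all alternatives, whereas chr12:55433695-55434423 was lost without day 21 replicate 3 (edgeR adjusted p over regions = 0.0883) or day 7 replicate 4 (0.0611), and chr12:55443182-55443483 without day 7 replicate 2 (0.0566).

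Psmb4, a structural beta subunit, had 13.5, 15.0, 13.0 and 12.1 CPM in distal regions at day 21, against 10.1, 11.3, 10.9 and 9.75 CPM at day 7. All day 21 libraries were higher (0.35 ± 0.12, edgeR adjusted p = 0.0231), whereas its gene-end sum was 18.0 ± 2.70 CPM at day 21 and 20.3 ± 2.79 CPM at day 7. Of its 3 distal regions, those nearest the gene rose by 0.76 ± 0.23 and 0.54 ± 0.19 (edgeR adjusted p over regions = 0.0121 and 0.0295). The nearer was lost without day 21 replicate 4 (0.0516 over regions), and the other without day 21 replicate 1 or 2 or day 7 replicate 3 or 4 (0.0521 to 0.137 over regions). Without day 21 replicate 2 or day 7 replicate 1 or 4, the distal call was lost (edgeR adjusted p of 0.0524 to 0.113), as it was with DESeq2 and after thinning. The base scaffold gene Psmd1 had the remaining distal region that rose (0.27 ± 0.10, edgeR adjusted p over regions = 0.0386), which was lost when any library but day 21 replicate 2 or day 7 replicate 2 was left out (0.0688 to 0.157).

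**Figure D5:**
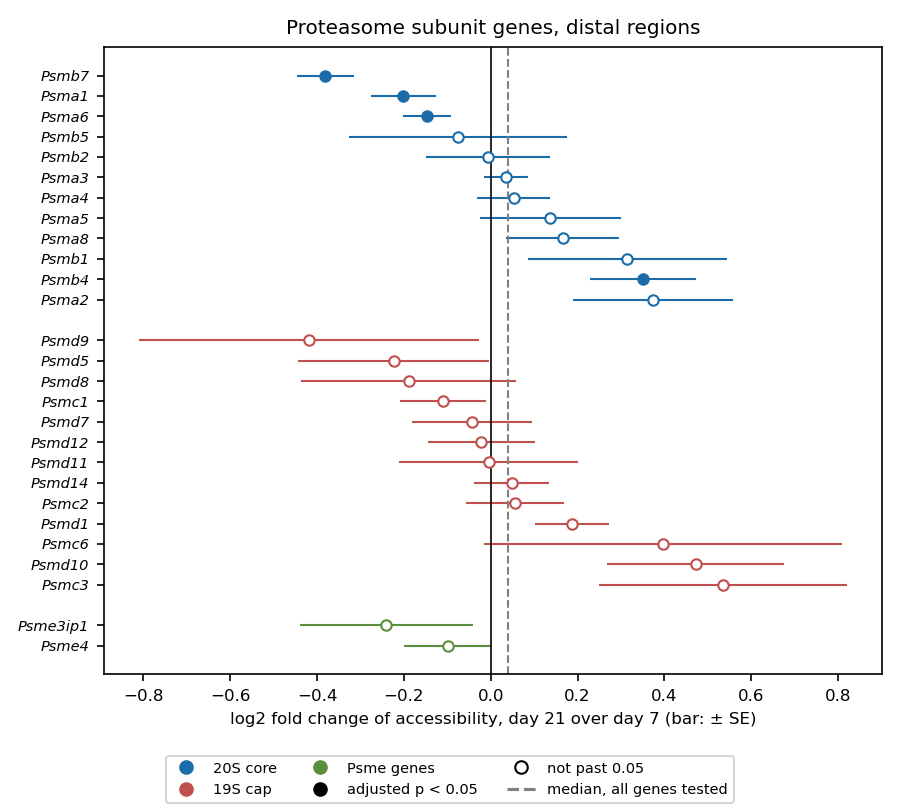
Log2 fold change of accessibility in distal regions, day 21 over day 7 (x axis), for the 27 members tested, with bars of ± SE. Filled points passed an adjusted p of 0.05: Psmb7, Psma1 and Psma6 on the left and Psmb4 on the right, and no 19S cap gene.

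A list of 45 other genes of the ubiquitin-proteasome pathway, chosen by role, was read from the same fits. Paaf1 was not analysed here. At gene ends 40 were tested, 10 fell (25.0%, against 24.6% of all genes) and 1 rose (2.5%, against 6.71%), with a median of −0.062, against −0.089 for all genes. The share that fell was close to that of all genes. Akirin2, which carries proteasomes into the nucleus, fell by 0.41 ± 0.07 on the log2 scale (edgeR adjusted p = 2.18e-06), and the ubiquitin shuttle Rad23b fell by 0.35 ± 0.06 (edgeR adjusted p = 1.49e-05). Ufd1, a cofactor of the unfoldase Vcp, fell by 0.30 ± 0.06 (edgeR adjusted p = 1.14e-04), and the heat shock regulator Hsf1 fell by 0.29 ± 0.07 (edgeR adjusted p = 8.08e-04). Nfe2l1, the factor that induces proteasome genes when proteasomes are impaired, was at −0.12 ± 0.06 (edgeR adjusted p = 0.0876) and passed without day 21 replicate 3 (0.0412). The protease Ddi2, which activates it, fell by 0.38 ± 0.10 (edgeR adjusted p = 0.00173). Pomp, the chaperone of core assembly, was at 0.04 ± 0.07 (edgeR adjusted p = 0.699), and the polyubiquitin gene Ubb at −0.16 ± 0.06 (edgeR adjusted p = 0.0314), which was lost without day 21 replicate 1 or 3 or day 7 replicate 1 or 2 (edgeR adjusted p of 0.0508 to 0.0996), with DESeq2, after thinning and with trended offsets. With windows of 500 bp, however, Ubb was at −0.56 (edgeR adjusted p = 1.27e-09). The regions of Ufd1 and Hsf1 are shared with other genes (Cdc45 and Bop1 among them). The proteasome inhibitor Psmf1 had no region at a gene end. With trended offsets 5 of the list were lower and 7 higher, against 12.3% and 11.9% of all genes.

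Cap genes with and without the ETS letters in their promoter had close values at their gene ends. Of 9 genes of the cap group with a match 4 fell, Psmc3ip among them (median −0.19), and of 8 without one 4 fell (median −0.18). Of 5 members with TGACNNNGC 2 fell (median −0.25), and of 27 without it 10 fell and 1 rose (median −0.17). Both that fell were among the 3 cap genes with it (median −0.38), and 6 of 14 cap genes without it fell (median −0.18). Of 2 core genes with it 0 fell (median −0.14), and of 8 without it 4 fell (median −0.19). Over all genes tested, 24.6% fell and 6.71% rose. Differences by motif were not tested.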

How the data were processed

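The authors deposited whole-number raw counts per region for 8 ATAC-seq libraries over 1 shared set of 128057 regions (median width 364 bp), not normalized. The submitters' processing notes list MACS2 2.1.0.20150603, cutadapt 1.9, bedtools, Picard 1.65 and SAMtools, and name mm10 (GRCm38) as the build. The aligner, read filters, the rule for merging peaks, the unit counted, any transposase shift of positions and the counting base of coordinates are not given in the sources used here. A shift moves counts by a few bases, well under the width of a region.

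The members and lists were chosen with earlier results of these data known. Genes came from a RefSeq table of GRCm38.p6 that gives no strand, so both annotated ends were used. Counts were summed per gene over regions within 1000 bp of an end, or over distal regions within 50 kb. A region within reach of several genes counted for each at gene ends. Tests on sums and single regions used edgeR 4.0.16 under R 4.3.3 (filterByExpr, TMM factors, quasi-likelihood F test, day as the only term), with Benjamini-Hochberg adjustment over all genes or regions and a threshold of 0.05. The SE is the log2 fold change divided by the square root of F. CPM used TMM-scaled library sizes, and levels per kb divide by the length of region. Values are given in every library for up to 12 members with the smallest p, for catalytic subunits and for activators. The fits were tested on simulated data.

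Alternatives were RLE factors, no filter, DESeq2 1.42.0, limma-voom (limma 3.58.1), trended offsets, thinning to the smallest library, a replicate block, leaving out each library, windows of 500 and 2000 bp or around annotated starts, regions shared with no other gene, and distal limits of 20 and 100 kb. Leaving out Psme3ip1 among the genes that are no constitutive subunits, and the split of members by motif, were chosen after seeing the data. Single regions took the alternatives that do not set windows or limits. Some values of the pathway list are not reported here.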

Additional observations from a re-analysis of the deposited data

Results flagged for a closer look

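In 11 of 132 groups of 4 libraries, the highest or lowest value stood apart from the other 3 by Dixon's test at its 95% critical value. Chance flags about 1 in 20 groups. At gene ends, Psmb4 had 22.08 CPM in day 21 replicate 2, against 16.59 to 16.74 CPM in the other day 21 libraries. Psmd11 had 30.18 CPM in day 21 replicate 3, against 34.08 to 34.77 CPM. Psmc1 had 15.41 CPM in day 7 replicate 4, against 17.20 to 17.28 CPM, and Psma2 had 57.58 CPM in day 7 replicate 2, against 48.59 to 49.24 CPM. Psme2 had 155.5 CPM in day 7 replicate 3, against 143.9 to 144.9 CPM. The Psma2 library is one of those without which its call was lost.

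In distal regions, day 21 replicate 1 was apart for Psmb2 (10.83 CPM, others 7.941 to 8.432) and for Psma4 (27.35 CPM, others 32.07 to 32.52), and day 21 replicate 4 for Psmd10 (6.368 CPM, others 4.641 to 4.933). Day 7 replicate 1 was apart for Psmc2 (11.88 CPM, others 17.65 to 18.27) and Psme4 (19.10 CPM, others 18.48 to 18.58). Day 7 replicate 2 was apart for Psma1 (51.63 CPM, others 41.48 to 42.50), and the distal call of Psma1 was lost without it.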

How the results depend on the processing

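At gene ends Psmd3, Psmd12 and Psmb10 were lower under every alternative that gave them a value. The number of lower members (14, against 24.6% of all genes) was 4 with DESeq2 (11.1% of all genes) and 5 with trended offsets (12.3% of all genes). It ran from 9 to 16 when each library was left out. The number of higher members (1) was 0 after thinning and ran from 0 to 1 with libraries left out. The members' median (−0.18) was −0.090 with DESeq2, −0.076 with trended offsets, and for windows reaching 2000 bp it was −0.13. For the 20S core it was −0.11 with DESeq2 and −0.095 with trended offsets, and for the 19S cap −0.092 with DESeq2 and −0.074 with trended offsets. For the Psme genes it was −0.012 with DESeq2, −0.0063 with trended offsets and −0.24 with regions shared with no other gene. The median of all genes also moved with the scaling, as given above for trended offsets, and is not reported here for the other alternatives. In distal regions the 3 lower members became 1 within 20 kb, and 1 to 3 with libraries left out. The 1 higher became 0 with DESeq2 and after thinning, and 0 to 1 with libraries left out, while the median of the 19S cap ran from −0.036 to 0.091 with libraries left out. Reversed values were Zfand5 at gene ends, 0.53 with unshared regions (edgeR adjusted p = 0.00587), and Akirin2 in distal regions, 0.43 within 20 kb (edgeR adjusted p = 0.418). The causes were not tested. The labels do not say whether replicate numbers pair the libraries. Deviations from the day mean had correlations of −0.02 to 0.05 between same-numbered libraries, and only replicate 3 matched its own number best. A weak effect of pairing could leave such values, so they do not settle the question. With a replicate block 17 members were lower and 1 higher at gene ends, and 3 lower and 2 higher in distal regions. The shares of all genes with that block are not reported here. At 5 to 10 CPM, Psmd9 had a larger SE (0.16) than members of higher level, such as Psmd8 (0.07).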

Other observations

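In distal regions 37 genes of the pathway list were tested, of which 8 rose and 5 fell (18.3% and 11.4% of all genes), with a median of 0.08. Zfand5, a stress-induced activator of the proteasome, averaged 13.8 CPM at day 21 and 4.798 CPM at day 7 (1.501 ± 0.15 on the log2 scale, edgeR adjusted p = 1.00e-12). Its gene-end sum was at −0.05 ± 0.05 (edgeR adjusted p = 0.515). The assembly chaperone gene Psmg4 fell by 0.76 ± 0.11 on the log2 scale (edgeR adjusted p = 1.19e-07), whereas Psmg1, another one, rose by 0.39 ± 0.07 (edgeR adjusted p = 6.92e-06) and Pomp by 0.30 ± 0.06 (edgeR adjusted p = 3.43e-05). At its gene ends Psmg1 had fallen, by 0.30 ± 0.11 (edgeR adjusted p = 0.0287), which was lost without day 21 replicate 1, 2 or 4 or day 7 replicate 2 or 3 (edgeR adjusted p of 0.0502 to 0.0881), with DESeq2 and with trended offsets, and the distal call was lost within 20 kb. The immune subunit gene Psmb9 rose by 0.24 ± 0.06 in distal regions (edgeR adjusted p = 0.00101), with 96.3 CPM at day 21 and 81.5 CPM at day 7. Nfe2l1 fell by 0.29 ± 0.07 on the log2 scale there (edgeR adjusted p = 9.79e-04). The 8 that rose were Zfand5, Psmg1, Pomp, Psmb9, Ubqln1, Maff, Sem1 and Txnl1, and the 5 that fell were Psmg4, Nfe2l1, Akirin2, Nfyc and Uchl5. The inhibitor gene Psmf1 was at −0.21 ± 0.09 (edgeR adjusted p = 0.0697) and passed without day 21 replicate 3 (edgeR adjusted p = 0.0320) or day 7 replicate 1 (0.0472).

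Levels per length of gene-end region ran from Psma8 (8.73 CPM per kb at day 21 and 10.5 CPM per kb at day 7) and Psmb5 (10.73 at day 21 and 11.004 at day 7) up to Psmc4 (78.9 at day 21 and 89.0 at day 7), Psme3ip1 (80.7 at day 21 and 88.6 at day 7) and Psme2. The part of region width and of neighbouring genes in these differences was not tested.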
